A study of Homo sapiens with 14 samples.

Results

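Extracellular matrix and basement membrane genes were followed across every condition of an RNA sequencing study of FOXA1 in the human prostate cancer cell line 22Rv1. The set was a list of 36 named genes: 17 collagen chains, 7 laminin chains, 3 basement membrane linkers or proteoglycans, fibronectin and versican, 5 matricellular proteins and 2 crosslinking enzymes. All 36 had a feature in all 4 deposited count tables, which held 20243 to 57905 features each. A mean of at least 1 CPM (counts scaled to library size) in at least 1 table was reached by 31 of the 36, and 26 reached it in all 4 tables. The 5 that reached it in no table were COL4A1, COL1A2, COL12A1, LAMA1 and SPARC.

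FOXA1 is a forkhead factor that opens chromatin for the androgen receptor in luminal prostate cells. The 14 libraries formed 7 groups of 2. Of these, 2 were WT cells given lentivirus, with a control hairpin (shCtrl) or with a hairpin that knocks FOXA1 down (shFOXA1). A further 3 carried FOXA1_dTAG, a fusion that a small molecule marks for degradation, at 0 h, 1 h and 24 h. The last 2 groups also carried FOXA1_dTAG and were labelled WT or R219S, a substitution in FOXA1, so that the WT group here was not unmodified 22Rv1. The labels state that the FOXA1_dTAG groups received either dTAG or DMSO, without saying which the WT and R219S groups received. The shCtrl titles name the line as 22Rv2, while the other labels of those libraries say 22Rv1. Whether a group was 1 clone or several was not given in the sources used here. The labels do not state that the libraries of a group came from separate cultures, so each p-value measures spread between libraries, which may be technical.

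Basement membranes are thin sheets under epithelia, built from a laminin network and a type IV collagen network that nidogen and heparan sulfate proteoglycans join together. A laminin is a trimer of 1 alpha, 1 beta and 1 gamma chain, so its composition follows from which chains a cell makes. In the prostate, basal cells anchor to laminin-332, which holds the LAMA3 and LAMB3 chains, through hemidesmosomes, while interstitial collagens, fibronectin and versican are made mainly by stroma and in part by tumour cells.

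Library totals ran from 21.6 M to 38.5 M counts. FOXA1 mRNA itself was 402.3 and 434.5 CPM in shCtrl and 298.5 and 304.8 CPM in shFOXA1, so most of the transcript remained in the knockdown. In the time course it is FOXA1 protein that is degraded, and its mRNA is no measure of that. All 5 epithelial and all 5 prostate luminal marker genes exceeded 1 CPM in every table. Of 9 fibroblast and mesenchymal markers, 3 exceeded 1 CPM in each table, and none of 5 endothelial or 4 leukocyte markers did. POSTN, a stromal matrix gene, was at 0 in all knockdown and time course libraries. The summed level of the 9 fibroblast and mesenchymal markers was 25.5 to 26.8 CPM in shCtrl and 41.4 to 45.6 CPM in shFOXA1. It was 53.9 to 57.4 CPM at 0 h and 58.4 to 62.1 CPM at 24 h, and 202 to 209 CPM in WT and 247 to 253 CPM in R219S. Of these markers, 2 of 5 tested were called higher in shFOXA1 and 3 of 5 in R219S, with 0 lower. At 24 h 2 of 6 were higher and 1 lower, with a median log2 fold change of -0.28, although the sum was higher. The summed epithelial markers were also higher in the treated group of each comparison, though not every gene rose. The sums were 985 to 989 CPM in shCtrl and 1350 to 1400 CPM in shFOXA1. They were 3570 to 3610 CPM at 0 h and 4450 to 4630 CPM at 24 h, and 6990 to 7010 CPM in WT and 8650 to 8880 CPM in R219S. Of the 5 epithelial genes, 2 were called higher and 1 lower in shFOXA1, and 4 higher and 0 lower at 1 h. Both at 24 h and in R219S, 3 were higher and 2 lower. The summed prostate luminal markers were higher in shFOXA1, at 2390 to 2560 CPM against 1890 to 1960 CPM, but lower in the other comparisons. They were 1820 to 1840 CPM at 0 h and 1600 CPM at 1 h, 1850 to 1870 CPM at 0 h and 1770 to 1790 CPM at 24 h on the scaling of that table, and 1270 CPM in WT and 834 to 846 CPM in R219S, where 4 of the 5 genes were called lower. In shFOXA1, 4 of the 5 luminal genes were called higher and 0 lower. At 1 h 2 were higher and 2 lower, and at 24 h 3 were higher and 2 lower. Their median log2 fold changes were 0.36, 0.073 and 0.34 in that order, so the lower sums at 1 h and 24 h do not describe the median gene. The shares called over all genes are given below. The part of these lists in the matrix results was not tested.

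Before the values, the stretches of promoter that several of the matrix genes below share or do not share are shown. RefSeq entries on GRCh38.p14 gave the bases before the transcript start for 26 of the 36 genes, in 33 windows of 250 bases, because some genes have several starts. The single sites are shown with the 10 bases on either side, whether or not an annotated exon covers them. The longer stretches leave out bases in an annotated exon, so they can be shorter than the window searched. Each window was searched on both strands for 5 short motifs that were chosen with the results in view. The AP-1 letters TGAGTCA were present in 2 of the 33 windows, from LAMA3 and LAMB3, and in 4.2% of all 35116 windows of the table. These 2 genes encode partner chains of laminin-332 and changed in opposite directions at 24 h, which is why their sites are shown, with the motif in capitals on the strand of the gene.
LAMA3, distal site (GRCh38.p14, chr18:23872885-23872911, plus strand): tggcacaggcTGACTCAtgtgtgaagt
LAMA3, proximal site (GRCh38.p14, chr18:23872941-23872967, plus strand): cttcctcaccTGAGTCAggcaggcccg
LAMB3 (GRCh38.p14, chr1:209651425-209651451, minus strand): tcagccactcTGACTCAttcactttgg

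The proximal LAMA3 match lay 69 to 63 bases before that gene's start, and the distal match 125 to 119 bases before it. The LAMB3 match lay 67 to 61 bases before the most downstream of its starts, and the other windows of LAMB3 held no match. The proximal LAMA3 match and this LAMB3 match can be set side by side only by choosing among sites and starts, so their distances are a description. The cyclic AMP response letters TGACGTCA were found in 1 of the 33 windows, from FN1, against 1.65% of all windows. The TEAD letters GGAATG were found in 4 of the 33 windows, from CCN2, COL12A1, SPARC and THBS1, against 11.9% of all windows. The CCAAT letters were found in 11 of the 33, against 32% of all windows. For both motifs the share in matrix genes was near that of all windows. The forkhead letters TGTTTAC matched none of the 33 windows and 2.98% of all windows, which says only that these letters were not in these stretches. FN1, which fell at 24 h and in R219S, and THBS1, which was called in all 4 comparisons, are shown with these matches in capitals.
FN1, 80 of the 250 bases searched (GRCh38.p14, chr2:215436173-215436252, minus strand): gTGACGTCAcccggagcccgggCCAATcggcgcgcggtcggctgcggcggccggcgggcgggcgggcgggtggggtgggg
THBS1 (GRCh38.p14, chr15:39580829-39581078, plus strand): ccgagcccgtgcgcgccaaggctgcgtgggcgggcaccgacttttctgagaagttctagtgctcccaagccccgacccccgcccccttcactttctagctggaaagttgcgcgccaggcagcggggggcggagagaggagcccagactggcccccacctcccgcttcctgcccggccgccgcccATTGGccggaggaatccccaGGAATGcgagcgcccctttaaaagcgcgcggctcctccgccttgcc

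Type IV collagen genes lie head to head in pairs, COL4A1 with COL4A2 and COL4A6 with COL4A5, with 127 and 380 bases between the nearest transcript starts of the RefSeq table. The stretch before COL4A5 is shown because it also forms part of the stretch before COL4A6. It holds 2 CCAAT matches, in capitals, 1 on each strand.
COL4A5 (GRCh38.p14, chrX:108439588-108439837, plus strand): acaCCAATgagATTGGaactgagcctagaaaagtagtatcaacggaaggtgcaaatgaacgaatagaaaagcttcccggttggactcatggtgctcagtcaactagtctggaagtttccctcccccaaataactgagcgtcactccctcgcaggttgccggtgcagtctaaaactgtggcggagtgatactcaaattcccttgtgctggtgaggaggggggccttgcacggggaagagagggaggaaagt

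A gene was called higher or lower at an adjusted p under 0.05 in edgeR's quasi-likelihood test over all genes of a table. Whether groups overlapped is given as a description. With 2 libraries per group it is no test, and the share of all genes without overlap was not counted. In shFOXA1 against shCtrl, 11 matrix genes were higher and 2 lower of the 29 tested (44.8%), with a median log2 fold change of 0.23. Over all genes tested the called share was 23.6%, made of 11.3% higher and 12.3% lower, and the median was 0.00995. The number of matrix genes called was larger without either shFOXA1 library and smaller without either shCtrl library. The number called over all genes moved in the same way. In bulk RNA of this kind, fewer cells that make a transcript and less of it per cell cannot be told apart. At 1 h against 0 h, 5 were higher and 6 lower of 31 (35.5%, median 0.054), where all genes gave 19.8% called, 10.7% higher and 9.12% lower, with a median of 0.000738. With a joint correction for GC content and gene length, 4 were called at 1 h (12.9%), 1 higher and 3 lower, a share near the 13.8% called over all genes with the same correction. At 24 h against 0 h, 11 were higher and 7 lower of 31 (58.1%, median 0.14), where all genes gave 46.9% called, 22.1% higher and 24.8% lower, with a median of 0.00559. In R219S against WT, 10 were higher and 14 lower of 30 (80%, median -0.33), where all genes gave 62.1% called, 30.5% higher and 31.6% lower, with a median of 0.00337. The shares of matrix genes are descriptions, since the list was drawn up with earlier results of these data known.

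**Figure D1:**
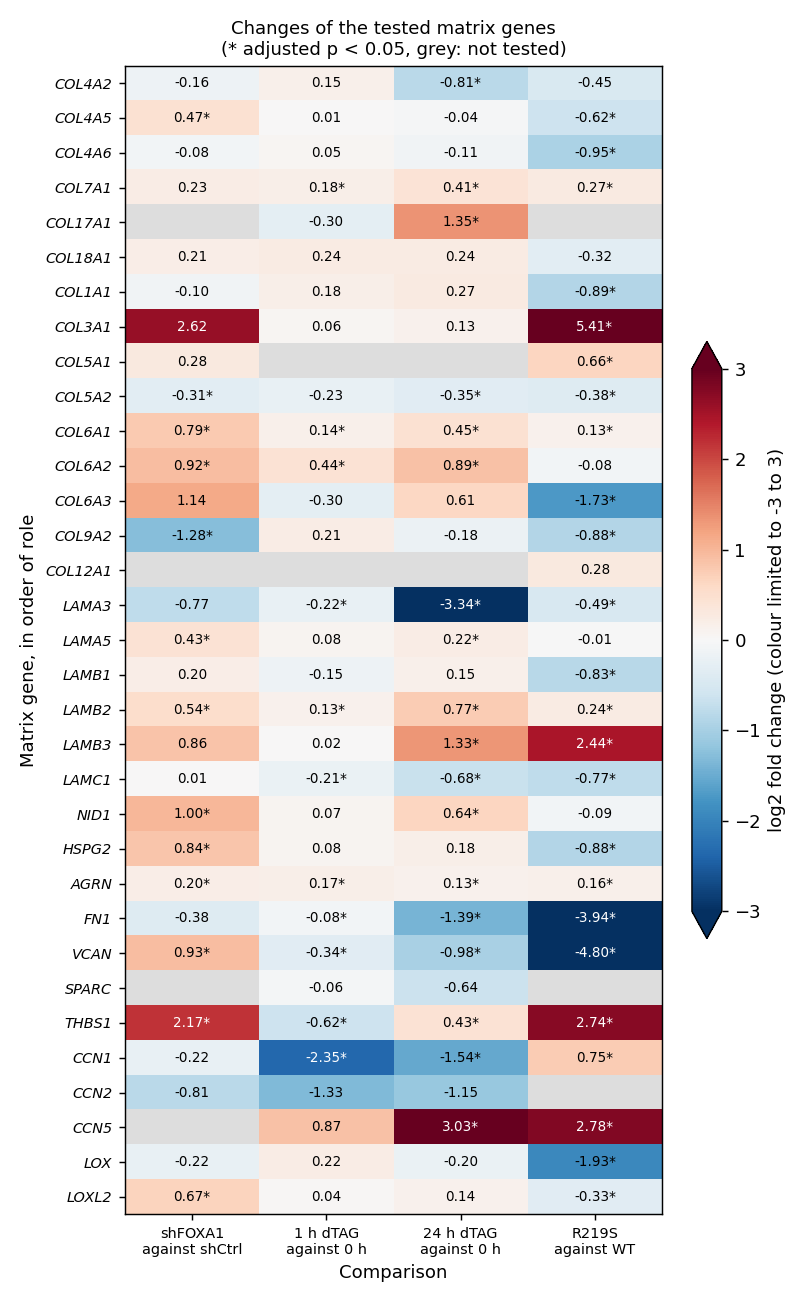
Log2 fold change of each of the 33 matrix genes tested in at least 1 of the 4 comparisons (rows, in order of role) by comparison (columns). Red is higher and blue is lower than the control group, asterisks mark an adjusted p under 0.05 and grey marks genes not tested. COL3A1 at 5.41 and VCAN at -4.80, both in R219S, lie at the ends of the range.

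Across these 4 comparisons, 5 of the 36 genes were called in all 4, 7 in 3, 8 in 2, 9 in 1 and 7 in none. The like counts over all genes were not made, so these are descriptions. Of all genes, 23.6%, 19.8%, 46.9% and 62.1% were called in the single comparisons, and 1 h and 24 h share their 0 h libraries. COL6A1, LAMB2 and AGRN were called higher in all 4, though with the GC and length correction their 1 h calls were lost and AGRN at 24 h turned to -0.15. THBS1 and VCAN were also called in all 4, in both directions. The 7 never called were COL18A1, COL12A1, CCN2 and SPARC, which were tested at least once, and COL4A1, COL1A2 and LAMA1, which did not pass the filter on low counts in any table. COL1A2 had 0 counts in all 4 WT and R219S libraries and at most 15 in any other library. LAMA1 had at most 9 counts in any library and SPARC at most 20. SPARC, a collagen-binding glycoprotein that stroma makes in quantity, was at 0.27 to 0.59 CPM in the 0 h, 1 h and 24 h libraries.

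Among the basement membrane collagens, COL4A5, the alpha-5 chain of type IV collagen, was the main type IV chain among the 4 listed, and its neighbour COL4A6 was far lower. Per kilobase of exon, COL4A5 averaged 10.5 and COL4A6 0.271 CPM per kilobase at 0 h. The other head-to-head pair was unequal too: COL4A2 averaged 0.182 and COL4A1 0.00485 CPM per kilobase at 0 h, with COL4A1 at 0 to 5 counts in every library. All of these levels are of mRNA and carry no test between genes.

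In shFOXA1, COL4A5 rose to 66.3 and 56.8 CPM from 46.8 and 42.2 CPM in shCtrl, without overlap, a log2 change of 0.47 ± 0.087 (standard error, 2 against 2 libraries; adjusted p = 0.00268). In R219S it fell instead, to 83.1 and 86.9 CPM from 130.5 CPM in both WT libraries, a log2 change of -0.62 ± 0.045 (adjusted p = 3.47e-36). COL4A6 fell alongside it in R219S, to 1.87 and 1.56 CPM from 3.11 and 3.53 CPM, by -0.95 ± 0.22 (adjusted p = 4.72e-05). So both genes of the pair on chromosome X were lower in R219S, while neither was called at 1 h or 24 h.

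COL4A2, the alpha-2 chain of the most widespread type IV collagen, was called at 24 h alone among the 4 comparisons. It was 3.73 and 3.29 CPM at 0 h and 1.54 and 2.44 CPM at 24 h, a log2 change of -0.81 ± 0.21 (adjusted p = 0.00199). The 24 h libraries lay apart from each other, and without 24 h replicate 1 the value was -0.52 and the adjusted p 0.0663. Genes that overlap COL4A2 on the opposite strand (COL4A2-AS1 and COL4A2-AS2) cannot be told apart from it where the strand setting of the counting is not given.

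Anchoring collagens of epithelia moved with the 24 h treatment. COL17A1, the transmembrane collagen of hemidesmosomes, was low, at 0.65 and 0.77 CPM at 0 h, and reached 1.66 and 1.99 CPM at 24 h, a log2 change of 1.35 ± 0.31 (adjusted p = 0.000446). COL7A1, which forms the anchoring fibrils below hemidesmosomes, was 99.7 and 95.6 CPM at 0 h and 128.3 and 131.2 CPM at 24 h, a log2 change of 0.41 ± 0.043 (adjusted p = 1.34e-09). In both genes each 24 h library exceeded each 0 h library. COL7A1 was also called higher at 1 h (0.18) and in R219S (0.27). The GC and length correction kept these calls but gave 0.18 at 24 h, 0.10 at 1 h and 0.43 in R219S. COL18A1, the source of endostatin, was called in none of the 4.

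The laminin chains did not move as a block. Of the 6 tested, LAMA1 being the one left out, 2 were called higher in shFOXA1 and none lower. At 1 h 1 was higher and 2 lower, at 24 h 3 were higher and 2 lower, and in R219S 2 were higher and 3 lower. The called shares were 33.3%, 50%, 83.3% and 83.3% in this order, where all genes gave 23.6%, 19.8%, 46.9% and 62.1%. With 6 chains these shares are descriptions. The GC and length correction removed the 1 h calls of LAMA3 and LAMB2 and the 24 h call of LAMA5.

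LAMA3, the alpha chain of laminin-332, had the largest fall of any matrix gene at 24 h. It was 71.8 and 66.3 CPM at 0 h and 7.39 and 6.26 CPM at 24 h, a log2 change of -3.34 ± 0.079 (adjusted p = 2.69e-25). Both 24 h libraries were far below both controls, and under the alternatives tried the value lay between -3.46 and -3.22. At 1 h the fall was small, to 58.1 and 59.2 CPM from 71.0 and 65.4 CPM, -0.22 ± 0.047 (adjusted p = 0.000225), and it was no longer called after the GC and length correction (-0.12, adjusted p = 0.0716). The joint fit of the 6 libraries with FOXA1_dTAG time points gave -3.13 ± 0.074 for 24 h against 1 h (adjusted p = 4.93e-35), so nearly all of the fall came after the first hour.

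LAMB3, the beta chain of the same trimer, went the other way. It was 9.24 and 9.09 CPM at 0 h and 21.4 and 24.6 CPM at 24 h, without overlap, a log2 change of 1.33 ± 0.094 (adjusted p = 2.61e-13). At 1 h it was 9.57 and 8.74 CPM and was not called. At 24 h LAMA3 was therefore lower and LAMB3 higher. Per kilobase of exon, LAMA3 averaged 4.71 and LAMB3 1.96 CPM at 0 h, and 0.465 and 4.9 CPM at 24 h, so that their order was reversed.

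In R219S LAMA3 and LAMB3 changed unevenly again. LAMB3 was 2.59 and 2.52 CPM in WT and 15.1 and 12.9 CPM in R219S, a log2 change of 2.44 ± 0.13 (adjusted p = 1.53e-59). LAMA3 was low in both groups, at 2.85 and 3.27 CPM in WT and 2.01 and 2.30 CPM in R219S. Its value of -0.49 ± 0.21 (adjusted p = 0.0356) was lost in 5 of 10 alternatives, DESeq2 and the GC and length correction among them. In shFOXA1 neither LAMA3 (-0.77, adjusted p = 0.0751) nor LAMB3 (0.86, adjusted p = 0.0666) was called. Both were called with no filter (adjusted p = 0.0312 and 0.00986) and without shFOXA1 replicate 1 (-1.27 and 1.25, adjusted p = 0.00114 and 6.71e-05).

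The LAMA3 level at 0 h stood far above that of the other control groups, which were 2.37 and 2.26 CPM in shCtrl and 2.85 and 3.27 CPM in WT. Those tables were counted and scaled separately and the levels were not tested against each other. The 0 h and WT groups carry the same genotype label, and what else differed between them is not given in the sources used here.

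**Figure D2:**
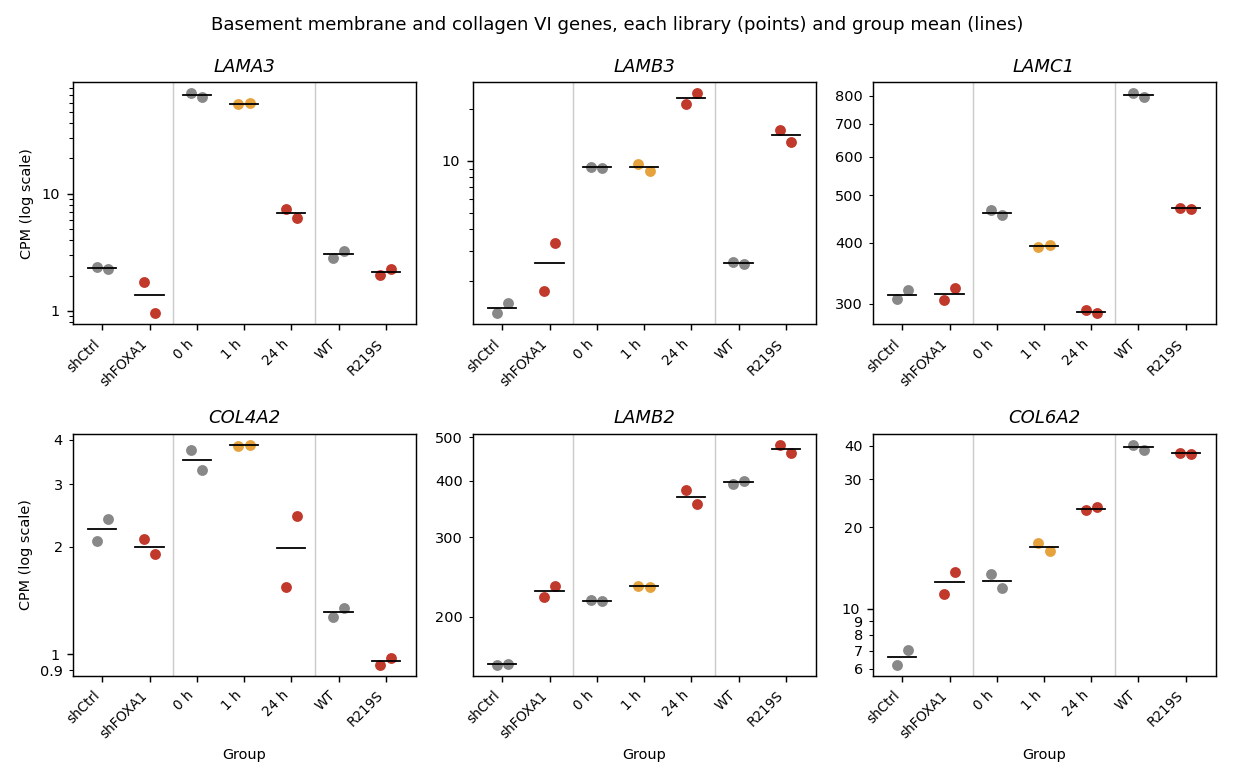
CPM of LAMA3, LAMB3, LAMC1, COL4A2, LAMB2 and COL6A2 in each library (points, log scale) with the group mean (lines), by group; grey lines part the 3 experiments, which were scaled separately, with 0 h scaled as in the 24 h table. LAMA3 drops to 7.39 and 6.26 CPM at 24 h while LAMB3 climbs to 21.4 and 24.6 CPM.

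LAMC1, the gamma-1 chain found in most laminins, had the highest level of the listed laminin chains per kilobase of exon at 0 h, 54.8 CPM, and fell in both experiments with FOXA1_dTAG. It was 465.9 and 455.8 CPM at 0 h and 290.7 and 286.4 CPM at 24 h, a log2 change of -0.68 ± 0.035 (adjusted p = 1.97e-16). At 1 h it had already fallen to 391.5 and 395.4 CPM, by -0.21 ± 0.028 (adjusted p = 4.2e-09), and that call remained after the GC and length correction (-0.13). In R219S it fell from 808.7 and 795.7 CPM to 470.5 and 469.2 CPM, by -0.77 ± 0.037 (adjusted p = 5.64e-73). In shFOXA1 the libraries overlapped with shCtrl, at 305.6 and 322.5 against 306.3 and 319.2 CPM.

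LAMB2, the beta chain of laminins with LAMC1, rose where LAMC1 did not. It was 156.3 and 156.9 CPM in shCtrl and 221.2 and 233.5 CPM in shFOXA1, a log2 change of 0.54 ± 0.06 (adjusted p = 9.93e-05). At 24 h it was 381.9 and 355.4 CPM against 217.5 and 216.1 CPM at 0 h, a log2 change of 0.77 ± 0.039 (adjusted p = 7.28e-17). In R219S it was called higher by 0.24. Per kilobase of exon, LAMC1 and LAMB2 averaged 54.8 and 31.6 CPM at 0 h and 34.3 and 53.7 CPM at 24 h, and 95.4 and 57.9 CPM in WT and 55.9 and 68.7 CPM in R219S. LAMC1 was thus the higher of the pair at 0 h and in WT, and LAMB2 at 24 h and in R219S. In shCtrl LAMC1 was the higher, at 37.2 against 22.8 CPM per kilobase. In shFOXA1 the values were 37.4 and 33.1, but there the order depends on the length used. Merged exons span 8406 bases in LAMC1 and 6865 in LAMB2, and the longest transcripts 7889 and 5674 bases. By the longest transcripts LAMC1 was not the higher in shFOXA1. LAMB1, the alternative beta chain, was called in R219S alone among these 4 comparisons, where it fell from 67.0 and 65.4 CPM to 37.7 and 36.9 CPM, by -0.83 ± 0.057 (adjusted p = 2.32e-41). LAMB1 shares exon sequence on the opposite strand with DLD, which the counts may not separate.

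LAMA5, the alpha chain of the main epithelial laminins, rose in shFOXA1 to 172.1 and 147.3 CPM from 118 and 119.7 CPM, by 0.43 ± 0.075 (adjusted p = 0.00187). The 24 h comparison called it higher by 0.22, but the GC and length correction turned that value to -0.042 (adjusted p = 0.406). In R219S it was not called (-0.006, adjusted p = 0.9) and became 0.18 (adjusted p = 1.1e-07) with the same correction. LAMA5 overlaps ADRM1 and LAMA5-AS1 on the opposite strand.

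The 3 linkers and proteoglycans of the basement membrane were all called higher in shFOXA1, where 11.3% of all genes were called higher. With 3 genes this is a description. NID1, nidogen, which bridges laminin and type IV collagen, was 28.3 and 27.6 CPM in shCtrl and 50.6 and 61.0 CPM in shFOXA1, a log2 change of 1.00 ± 0.093 (adjusted p = 3.84e-05). HSPG2, perlecan, was 2.95 and 2.64 CPM in shCtrl and 5.01 and 4.97 CPM in shFOXA1, by 0.84 ± 0.18 (adjusted p = 0.00569), a call that was lost without shCtrl replicate 2 (adjusted p = 0.0716). AGRN, agrin, was called at 0.20, and was lost without either shCtrl library (adjusted p = 0.228 and 0.267). No shFOXA1 library overlapped with shCtrl in these 3 genes, but the share of all genes without overlap was not counted.

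NID1 also rose at 24 h, from 19.8 and 19.2 CPM to 30.9 and 29.6 CPM, by 0.64 ± 0.073 (adjusted p = 1.2e-08), and was not called in R219S. HSPG2 was not called at 24 h and fell in R219S, from 20.6 and 21.1 CPM to 11.9 and 10.9 CPM, by -0.88 ± 0.089 (adjusted p = 1.29e-20). HSPG2 was thus higher in shFOXA1 and lower in R219S, each against its own control. AGRN was called by 0.13 to 0.20 in all 4 comparisons, the smallest changes among the called linkers. Without 0 h replicate 2 its values were 0.081 at 1 h and 0.032 at 24 h, and without WT replicate 1 its value in R219S was 0.098, all uncalled. Without 0 h replicate 1 they were 0.28 at 1 h and 0.22 at 24 h, and the GC and length correction gave 0.30 in R219S.

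Among interstitial collagens, collagen VI was the group called higher most often. COL6A1 and COL6A2, 2 of the chains of the beaded filament collagen VI, lie next to each other in the genome. In shFOXA1, COL6A1 was 106.4 and 121.3 CPM against 65.4 and 66.2 CPM in shCtrl, a log2 change of 0.79 ± 0.073 (adjusted p = 2.77e-05). COL6A2 was 11.4 and 13.7 CPM against 6.21 and 7.04 CPM, by 0.92 ± 0.14 (adjusted p = 0.000803). Both chains thus rose. The groups did not overlap, which is a description without a share over all genes beside it.

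The degradation time course gave the same direction for both chains. COL6A2 was 13.2 and 11.8 CPM at 0 h and 17.4 and 16.4 CPM at 1 h, by 0.44 ± 0.09 (adjusted p = 9.62e-05), which the GC and length correction lowered to 0.25 (adjusted p = 0.0506). At 24 h it was 23.1 and 23.6 CPM against 13.4 and 11.9 CPM at 0 h, by 0.89 ± 0.086 (adjusted p = 3.27e-10). COL6A1 was 135.5 and 131.5 CPM at 24 h against 99.6 and 95.6 CPM at 0 h, by 0.45 ± 0.043 (adjusted p = 1.66e-10). Each 24 h library exceeded each 0 h library in both genes. In R219S the chains parted from this pattern: COL6A2 was not called (-0.079, adjusted p = 0.271) and COL6A1 was called by 0.13, which was lost under DESeq2 (adjusted p = 0.0856) and without WT replicate 1 (0.062, adjusted p = 0.386), and was 0.23 with the GC and length correction.

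COL6A3, the third chain of collagen VI, was at most 1.04 CPM in the libraries of the knockdown and time course tables and uncalled there. In R219S it fell from 6.61 and 5.22 CPM to 2.19 and 1.48 CPM, a log2 change of -1.73 ± 0.19 (adjusted p = 9.96e-19).

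COL3A1, the chain of the fibrillar collagen III, had the largest rise of any matrix gene. It was 7.03 and 5.86 CPM in WT and 276.5 and 281.3 CPM in R219S, a log2 change of 5.41 ± 0.062, with an adjusted p that edgeR returned as 0. Both R219S libraries stood far above both WT libraries, at 5920 and 7228 counts against 271 and 156. In shFOXA1 its libraries were at 5.82 and 14.1 CPM, with shCtrl at 1.44 and 1.77 CPM, without overlap, and the value of 2.62 ± 0.6 missed the threshold (adjusted p = 0.0683). The 2 shFOXA1 libraries differed from each other, and the value passed under DESeq2 (adjusted p = 0.000522), with no filter (adjusted p = 0.0422), at 1 CPM in 2 libraries (adjusted p = 0.0488) and without either shFOXA1 library. At 0 h, 1 h and 24 h it was 4.504 to 5.264 CPM in every library and was not called.

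The other fibrillar collagens tested in R219S were split, COL5A1 higher and COL1A1 and COL5A2 lower. COL1A1, the alpha-1 chain of collagen I, fell from 25.2 and 25 CPM to 13.5 CPM in both libraries, by -0.89 ± 0.083 (adjusted p = 5.48e-24). COL1A2, its partner chain, was at 0 counts throughout that table. COL5A2, which joins collagen I fibrils, was 16.7 and 15.4 CPM in WT and 14.1 and 10.9 CPM in R219S, by -0.38 ± 0.093 (adjusted p = 0.000105), and was lost without R219S replicate 2 (adjusted p = 0.124). COL5A1, its partner chain, rose from 3.11 and 2.70 CPM to 4.72 and 4.55 CPM, by 0.66 ± 0.18 (adjusted p = 0.000459). Per kilobase of exon, COL3A1 averaged 40.9 and COL1A1 1.38 CPM in R219S, and 0.946 and 2.55 CPM in WT.

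COL5A2 was lower in shFOXA1 and at 24 h as well. It was 24 and 24.7 CPM in shCtrl and 18.9 and 20.4 CPM in shFOXA1, by -0.31 ± 0.093 (adjusted p = 0.0298), and without either shCtrl library the call was lost (adjusted p = 0.138 and 0.238). At 24 h it was 10.0 and 11.7 CPM against 13.2 and 14.4 CPM, by -0.35 ± 0.1 (adjusted p = 0.00497), and was lost without 24 h replicate 1 (adjusted p = 0.0903) or 0 h replicate 2 (adjusted p = 0.0678). COL9A2, a chain of the cartilage collagen IX, fell in shFOXA1 from 4.88 and 6.80 CPM to 2.65 and 2.17 CPM, by -1.28 ± 0.21 (adjusted p = 0.00124). In R219S COL9A2 fell from 9.16 and 10.4 CPM to 5.84 and 4.75 CPM, by -0.88 ± 0.13 (adjusted p = 3.86e-11). The groups did not overlap in all 5 of these comparisons, which is a description without a share over all genes beside it.

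FN1, fibronectin, a glycoprotein that links collagens to integrins, fell wherever it was called, though its 1 h value turned positive with the GC and length correction. It was 853.9 and 812.9 CPM in WT and 56.2 and 52.5 CPM in R219S. The log2 fold change was -3.94 ± 0.046, with an adjusted p that edgeR returned as 0. At 24 h it was 153.5 and 149.8 CPM against 404.3 and 392.6 CPM at 0 h, by -1.39 ± 0.038 (adjusted p = 8.15e-24). Both falls kept their call under all alternatives tried, between -3.99 and -3.82 in R219S and between -1.42 and -1.34 at 24 h.

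At 1 h FN1 was 374.3 and 371.8 CPM against 399.3 and 387 CPM, a value of -0.076 ± 0.028 at the edge of the threshold (adjusted p = 0.0473). Of 11 alternatives, 8 did not keep that call, and the GC and length correction turned it to 0.061. In shFOXA1 it was 70.0 and 53.7 CPM against 80.8 and 80.4 CPM, by -0.38 ± 0.11 (adjusted p = 0.0507). DESeq2 called that fall (adjusted p = 0.00721), as did the fit without either shFOXA1 library.

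VCAN, versican, a large chondroitin sulfate proteoglycan, moved in opposite directions between experiments. It rose in shFOXA1, to 13.3 and 14.2 CPM from 6.87 and 7.53 CPM in shCtrl, by 0.93 ± 0.13 (adjusted p = 0.000317). At 1 h it was 27.8 and 28.7 CPM against 37.4 and 33.9 CPM, by -0.34 ± 0.063 (adjusted p = 1.74e-05), not called after the GC and length correction (-0.16, adjusted p = 0.0858). By 24 h it had fallen to 19.4 and 17.2 CPM from 37.9 and 34.4 CPM, by -0.98 ± 0.076 (adjusted p = 2.29e-12). In R219S it fell from 59.6 and 60.2 CPM to 1.59 and 2.61 CPM, by -4.80 ± 0.1 (adjusted p = 2.78e-211), the largest fall of any matrix gene. No groups overlapped in these 4 comparisons, again without a share over all genes beside it. VCAN-AS1 overlaps VCAN on the opposite strand.

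**Figure D3:**
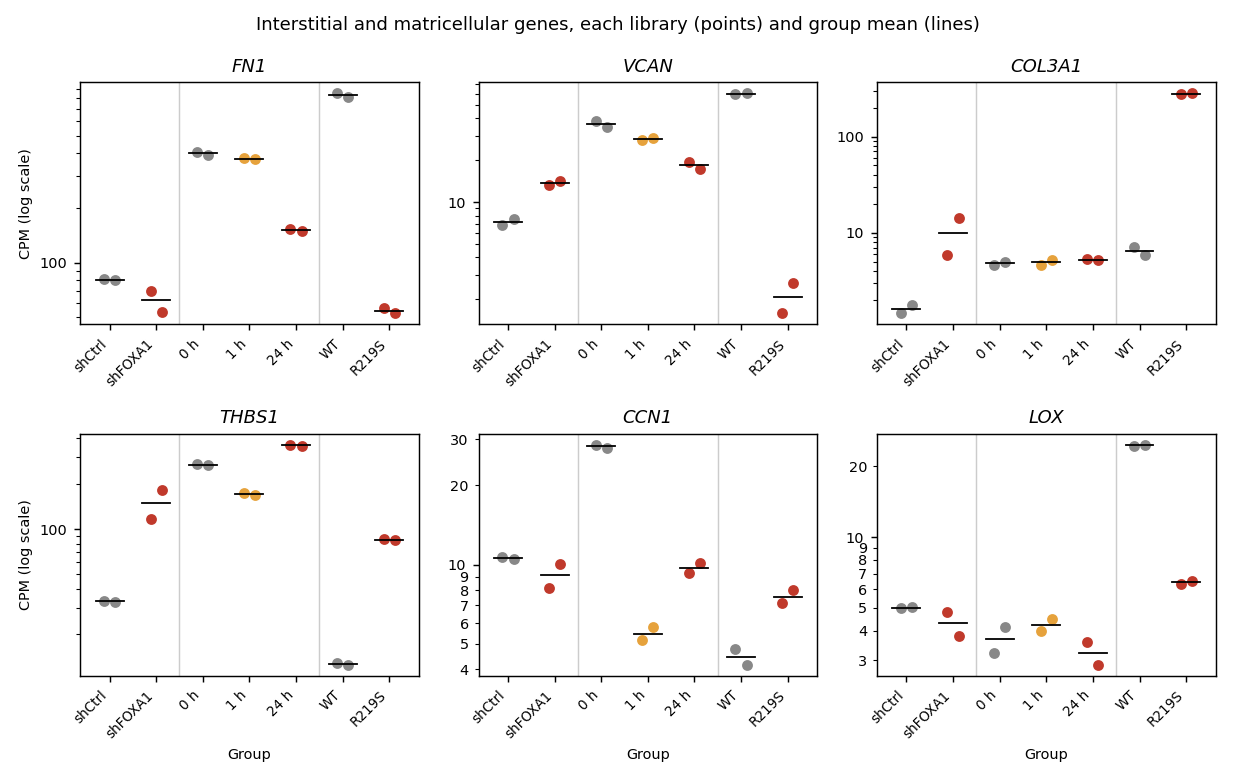
CPM of FN1, VCAN, COL3A1, THBS1, CCN1 and LOX in each library (points, log scale) with the group mean (lines), by group; grey lines part the 3 experiments, with 0 h scaled as in the 24 h table. FN1 and VCAN drop to 56.2 and 52.5 CPM and to 1.59 and 2.61 CPM in R219S, where COL3A1 reaches 276.5 and 281.3 CPM.

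Matricellular proteins are secreted into the matrix and act on cells rather than building fibres. THBS1, thrombospondin-1, an activator of latent TGF-beta and an inhibitor of vessel growth, was called in all 4 comparisons. It was 12.8 and 12.5 CPM in WT and 85.2 and 84.3 CPM in R219S, a log2 change of 2.74 ± 0.065 (adjusted p = 2.96e-191). In shFOXA1 its libraries stood at 117.3 and 180.6 CPM, with shCtrl at 33.4 and 32.9 CPM, by 2.17 ± 0.28 (adjusted p = 0.0315). The shFOXA1 libraries were far apart but both above both controls, and the call was lost without shCtrl replicate 1 (adjusted p = 0.305), without shCtrl replicate 2 (adjusted p = 0.335) and with no filter (adjusted p = 0.111).

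The time course of THBS1 turned between 1 h and 24 h. It was 173.3 and 168.4 CPM at 1 h against 265.4 and 261.4 CPM at 0 h, by -0.62 ± 0.032 (adjusted p = 1.13e-29). At 24 h it was 364 and 357.8 CPM against 268.8 and 265.1 CPM at 0 h, by 0.43 ± 0.036 (adjusted p = 9.67e-12). The joint fit gave 1.06 ± 0.033 for 24 h against 1 h (adjusted p = 3.55e-30). Thus the lowest libraries were those at 1 h and the highest those at 24 h, with no overlap among the 3 time points.

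CCN1, also known as CYR61, an immediate early gene whose product binds integrins, had the largest change at 1 h. It was 28.2 and 27.5 CPM at 0 h and 5.15 and 5.78 CPM at 1 h, by -2.35 ± 0.095 (adjusted p = 2.3e-36). By 24 h it was 9.27 and 10.1 CPM against 28.6 and 27.9 CPM, by -1.54 ± 0.086 (adjusted p = 7.75e-16). From 1 h to 24 h it rose by 0.80 ± 0.11 (adjusted p = 3.7e-08), so that part of the early fall had been regained. It rose in R219S, to 7.14 and 7.98 CPM from 4.77 and 4.17 CPM in WT, by 0.75 ± 0.14 (adjusted p = 2.88e-07). In shFOXA1 it was 8.19 and 10.1 CPM against 10.7 and 10.6 CPM and was not called (-0.22, adjusted p = 0.278).

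CCN2, the close relative also known as CTGF, was low, with 61 counts at most in any library. Its mean reached 1 CPM only in shFOXA1 against shCtrl. It was 0.95 and 1.66 CPM in shCtrl and 0.78 and 0.71 CPM in shFOXA1. There it was not called (-0.81 ± 0.36, adjusted p = 0.123). In the libraries with FOXA1_dTAG it was at 0.078 to 0.43 CPM. Its values at 1 h (-1.33 ± 0.66, adjusted p = 0.161) and 24 h (-1.15 ± 0.64, adjusted p = 0.146) were not called. CCN5, also known as WISP2, was also low and rose. It went from 0.36 and 0.23 CPM at 0 h to 2.28 and 2.53 CPM at 24 h, or from 12 and 8 to 74 and 83 counts, a log2 change of 3.03 ± 0.34 (adjusted p = 8.95e-09). In R219S CCN5 was called at 2.78 ± 0.64 (adjusted p = 4.38e-05) on 4 and 2 counts in WT and 17 and 14 in R219S, below the mean of 1 CPM used for description.

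The crosslinking enzymes were LOX, lysyl oxidase, which joins collagen and elastin chains, and its relative LOXL2, which acts on type IV collagen. LOX was 24.4 and 24.7 CPM in WT and 6.35 and 6.5 CPM in R219S, a log2 change of -1.93 ± 0.098 (adjusted p = 5.07e-68), and was called in no other of the 4 comparisons. LOXL2 was 11.4 and 12.7 CPM in shCtrl and 18.1 and 20.1 CPM in shFOXA1, by 0.67 ± 0.11 (adjusted p = 0.00124). In R219S LOXL2 was lower, at 12.3 and 12.0 CPM against 15.0 and 15.7 CPM, by -0.33 ± 0.094 (adjusted p = 0.000938). LOXL2 thus rose in the knockdown and fell in R219S, each against its own control. LOX shares exon sequence with SRFBP1 on the opposite strand and LOXL2 with ENTPD4 on the same strand, and THBS1 with FSIP1 on the opposite strand, whose reads the counts may not separate.

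**Figure D4:**
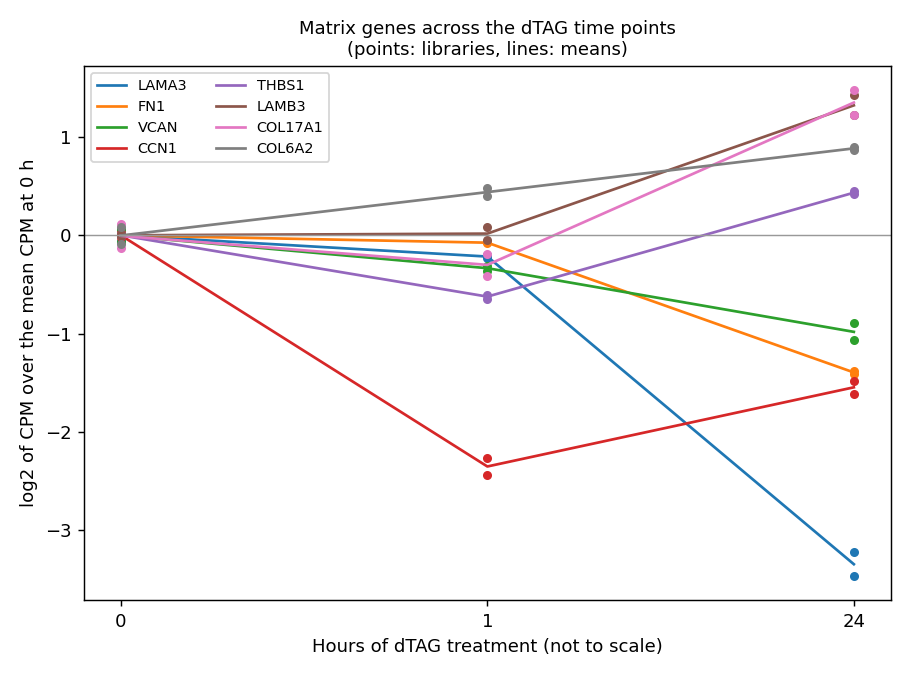
Log2 of the CPM over the mean CPM at 0 h for 8 matrix genes at 0, 1 and 24 h (points are libraries, lines means; the hour axis is not to scale), from the joint scaling of the 6 libraries. CCN1 is lowest at 1 h, LAMA3 and FN1 drop after 1 h, and THBS1 falls and then rises.

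The joint fit of the 6 time course libraries set the later change apart from the early one. From 1 h to 24 h, 12 matrix genes were higher and 5 lower of 31 (54.8%, median 0.097), where all genes gave 45.7% called, 21.2% higher and 24.5% lower, with a median of 0.00363. The lower genes were COL4A2, LAMA3, LAMC1, FN1 and VCAN. All 6 tested laminin chains were called, 4 higher and 2 lower, a number too small for its share to be more than a description. CCN5 had the largest rise, 2.16 ± 0.32 (adjusted p = 1.9e-07). The 1 h and 24 h comparisons share the 0 h libraries, so their values stand side by side and are not independent of each other.

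Apart from CCN1 and THBS1, the called changes at 1 h were at most 0.44 in size on the log2 scale, and most lost their call with the joint correction for GC content and length. The matrix genes called after it were COL7A1, LAMC1, THBS1 and CCN1, a share of 12.9% against 13.8% of all genes. COL6A1 went from 0.15 to 0.017 and AGRN from 0.17 to 0.017. With the same correction 13 matrix genes were called in shFOXA1, 17 at 24 h (9 higher, 8 lower) and 24 in R219S (11 higher, 13 lower). These were 44.8%, 54.8% and 80% of the matrix genes tested, against 23.7%, 47.9% and 65.9% of all genes with that correction. The matrix genes called with it were not all those called without it. At 24 h LAMA5 was lost and AGRN was called lower, and in R219S LAMA3 was lost and LAMA5 was called higher.

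**Figure D5:**
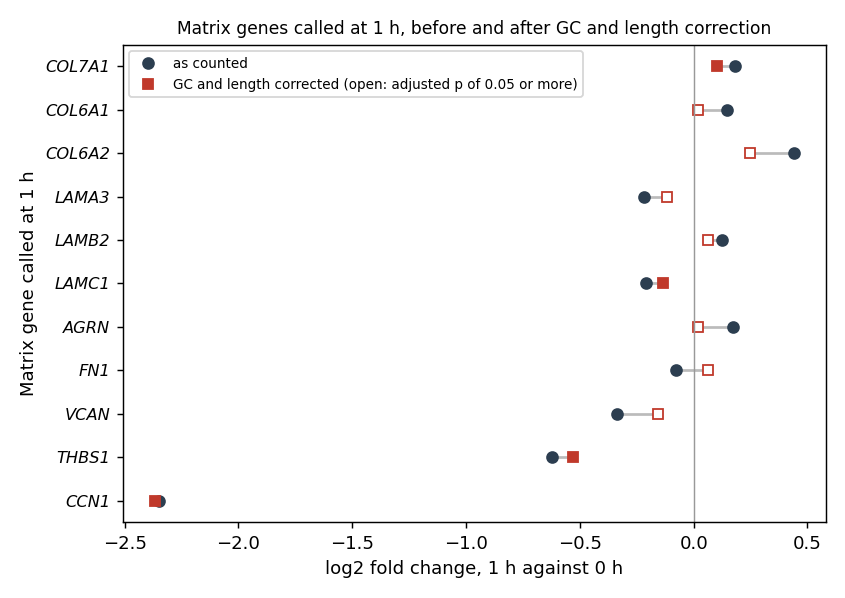
Log2 fold change at 1 h against 0 h of the 11 called matrix genes as counted (circles) and after the correction for GC content and gene length (squares, open where the adjusted p was 0.05 or more). CCN1 (-2.37), THBS1 (-0.53), LAMC1 (-0.13) and COL7A1 (0.10) were called after it.

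An interaction term over both experiments tested whether a gene changed differently at 24 h than in the knockdown. The difference was called in 13 of 32 matrix genes (40.6%), 2 with a higher and 11 with a lower change at 24 h, with a median of -0.34. All genes gave 22.7% called, 9.45% higher and 13.2% lower, with a median of -0.0366. VCAN differed by -1.90 ± 0.14 (adjusted p = 4.33e-09), LAMA3 by -2.56 ± 0.27 (adjusted p = 1.07e-06) and CCN1 by -1.31 ± 0.16 (adjusted p = 2.61e-06). LAMC1 differed by -0.67 ± 0.069 (adjusted p = 4.21e-07), FN1 by -1.001 ± 0.14 (adjusted p = 0.000719), and COL4A5 by -0.49 ± 0.095 (adjusted p = 0.000699). COL9A2 (1.11) and LAMB2 (0.24) were the 2 with the higher change at 24 h, and lost their call in 6 and 5 of 13 alternatives. Of the 11 with the lower change, NID1 lost its call in 9, THBS1 in 6, and HSPG2 and LOXL2 in 4 each, so that 7 of the 13 genes were called under every alternative. The count of 13 was smaller without any single shCtrl, 0 h or 24 h library and larger without either shFOXA1 library. The count over all genes moved in the same way. DESeq2 gave 10 of 32 (31.2%, against 19.3% of all genes). The replicate block gave 12 of 32 (37.5%, against 21.8% of all genes). The GC and length correction was not among the alternatives for these differences. The 2 experiments differ in how FOXA1 was lowered, in duration and in the cells used, which cannot be told apart.

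The R219S change was set against the 24 h change in the same way, over the 18360 gene symbols that both tables shared. The difference was called in 23 of 33 matrix genes (69.7%), 5 with a higher and 18 with a lower change in R219S, with a median of -0.34. All genes gave 55.6% called, 28.9% higher and 26.7% lower, with a median of 0.00538. The 5 were COL3A1 (5.26 ± 0.15), LAMA3 (2.84 ± 0.23), THBS1 (2.28 ± 0.07), CCN1 (2.27 ± 0.16) and LAMB3 (1.10 ± 0.17). VCAN (-3.85 ± 0.15), FN1 (-2.57 ± 0.059) and COL6A3 (-2.35 ± 0.4) had the lowest differences. In LAMA3 the positive difference goes with -3.34 at 24 h and -0.49 in R219S, so it was not a rise in R219S. For FN1 and VCAN the fall in R219S exceeded that at 24 h, with adjusted p-values of 8.83e-55 and 4.99e-37. These experiments differ in how FOXA1 was altered, and whether WT and R219S received dTAG or DMSO is not given. Control levels, scaled separately, differed too: LAMA3 averaged 69.1 CPM at 0 h and 3.06 CPM in WT, and FN1 398 and 833 CPM. The parts of these in the differences cannot be told apart.

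Genes that act on the matrix were followed in 5 further lists with 87 genes in all. Of the integrins and other matrix receptors, 5 of 18 tested were higher and 3 lower in shFOXA1, 5 and 3 at 1 h, 6 and 5 at 24 h, and 6 and 8 in R219S. The called shares were 44.4%, 44.4%, 61.1% and 77.8%, where all genes gave 23.6%, 19.8%, 46.9% and 62.1%. CD44, the hyaluronan receptor, averaged 58.7 CPM at 0 h and 172 CPM at 24 h (1.55 ± 0.045, adjusted p = 3.5e-23), and ITGB8, an integrin that activates latent TGF-beta, averaged 29.5 and 87.4 CPM (1.56 ± 0.054, adjusted p = 3.17e-21). In R219S the laminin receptor BCAM averaged 45.7 CPM against 176 CPM (-1.94 ± 0.049, adjusted p = 1.37e-180) and the syndecan SDC2 averaged 32.1 against 5.92 CPM (2.44 ± 0.091, adjusted p = 4.4e-107). ITGA6 and ITGB4, the integrin of hemidesmosomes that binds laminin-332, were not called in any of the 4 comparisons; this pair was picked out after its values were seen.

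Genes of collagen processing were called in 4 of 15 tested in shFOXA1 (26.7%, against 23.6% of all genes), 6 of 16 at 1 h (37.5% against 19.8%), 9 of 16 at 24 h (56.2% against 46.9%) and 9 of 15 in R219S (60% against 62.1%). The shares in shFOXA1 and R219S were near those of all genes. PLOD2, a lysyl hydroxylase that prepares collagen for crosslinking, averaged 186 CPM at 0 h and 54 CPM at 24 h (-1.78 ± 0.045, adjusted p = 1.06e-24). PCOLCE, an enhancer of procollagen cleavage, averaged 25.3 CPM in WT and 12.9 CPM in R219S (-0.97 ± 0.083, adjusted p = 1.62e-27). Of proteases and their inhibitors, 5 of 12, 4 of 13, 6 of 13 and 10 of 11 were called in shFOXA1, at 1 h, at 24 h and in R219S (41.7%, 30.8%, 46.2% and 90.9%), the 24 h share being near the 46.9% of all genes. ADAMTS1, a versican-cleaving protease, averaged 343 CPM at 0 h and 217 CPM at 1 h (-0.66 ± 0.031, adjusted p = 1.15e-31), and was higher at 24 h by 0.39 ± 0.037 (adjusted p = 2.12e-10). ADAMTS1 was thus below its 0 h level at 1 h and above it at 24 h, as THBS1 was.

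The other basement membrane genes were called in 3 of 10, 2 of 9, 6 of 9 and 7 of 9 tested in the same order (30%, 22.2%, 66.7% and 77.8%), where all genes gave 23.6%, 19.8%, 46.9% and 62.1%. LAMC3, a further gamma chain, averaged 2.69 CPM at 0 h and 0.981 CPM at 24 h (-1.45 ± 0.25, adjusted p = 1.61e-05), and NTN4, a laminin-related netrin, averaged 2.38 CPM in WT and 0.237 CPM in R219S (-3.34 ± 0.39, adjusted p = 2.69e-16). YAP and TEAD targets and factors, a list that was read beside CCN1 and CCN2, had 7 of 16, 6 of 17, 12 of 17 and 11 of 17 called (43.8%, 35.3%, 70.6% and 64.7%), the last being near the 62.1% of all genes. TGFB2, a TGF-beta ligand, averaged 47.7 CPM at 0 h and 7.7 CPM at 24 h (-2.63 ± 0.079, adjusted p = 1.34e-22), while YAP1, the coactivator itself, averaged 88.9 and 200 CPM (1.17 ± 0.041, adjusted p = 6.3e-21). In that list 1 gene was higher and 5 lower at 1 h, and 7 were higher and 5 lower at 24 h.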

How the data were processed

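The authors deposited raw read counts per gene in 4 tables, whole numbers with no normalization; per the submitters' processing notes, STAR, featureCounts, DESeq2 and the build hg19 were used, and versions, annotation and strand setting are not given in the sources used here. Both time course tables hold the 0 h libraries. Per-sample columns not used numbered 0. For each comparison, edgeR 4.0.16 (R 4.3.3) fitted the 4 libraries concerned after filterByExpr and TMM scaling, with robust quasi-likelihood F tests. Calls were made where p, adjusted by Benjamini-Hochberg for every tested gene in that table, was under 0.05. Standard errors were derived as the size of the log2 fold change divided by the root of F. CPM values use TMM scaling within a comparison. Levels per kilobase use merged GENCODE 29 exon lengths, whose build differs from that of the counts.

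The 24 h against 1 h contrast came from a joint fit of 6 libraries, and differences between changes came from interaction fits. Alternatives were other size factors, other filters, DESeq2 1.42.0, a replicate block, a GC and length correction, and leaving out each library. The GC and length correction was made only for shFOXA1, 1 h, 24 h and R219S, each against its own control. The fits were tested on simulated data. Counts of 21.6 M to 38.5 M per library set the precision: 3 counts correspond to 0.0778 to 0.14 CPM. Within groups, the chi-square of the libraries over its degrees of freedom was 2.04 to 4.04, and 11.8 in shFOXA1. Opposite-strand genes overlap exons of 12 matrix genes.

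The members and lists were chosen with earlier results of these data known. Named with values were matrix genes with a mean CPM of at least 1 that were called with an absolute log2 fold change of at least 0.3, genes that define a role, and, of the other lists, some of the called genes with the largest changes. Motifs, and the genes whose sequences are shown, were chosen after the values were seen.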

Additional observations from a re-analysis of the deposited data

Results flagged for a closer look

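VCAN changed in opposite directions in the knockdown and at 24 h of degradation, higher in both shFOXA1 libraries and lower in both 24 h libraries. The interaction fit in edgeR gave a difference of -1.90 on the log2 scale (adjusted p = 4.33e-09), and it lay between -1.99 and -1.82 over the 13 alternatives. CCN1 was lower in both 24 h libraries and higher in both R219S libraries, each against its own controls. That difference was 2.27 on the log2 scale (adjusted p = 3.83e-22).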

How the results depend on the processing

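Each called value of a single matrix gene was recomputed under every alternative run for its comparison. Of the recomputed values, 1236 kept direction and call, 104 kept the direction only and 3 reversed. The 3 were values under the GC and length correction: FN1 at 1 h (0.061), LAMA5 at 24 h (-0.042) and AGRN at 24 h (-0.15). That correction took the called matrix genes at 1 h from 11 to 4. It was not run for the 24 h against 1 h contrast or for the differences between changes. Leaving out 1 library at a time gave 9 to 20 called matrix genes in shFOXA1, against 13, the 20 without shFOXA1 replicate 1, and 8 to 16 for the difference of the 24 h and knockdown changes, against 13. In leave-one-out fits the lone library is assumed to vary like the other groups. Calls in all alternatives were kept by 9 of 13 genes in shFOXA1, 4 of 11 at 1 h, 14 of 18 at 24 h and 20 of 24 in R219S. The replicate numbers did not pair the libraries, with correlations of replicate differences of -0.016 to 0.0338 between groups. With a replicate block, 16, 10, 19 and 24 matrix genes were called in shFOXA1, at 1 h, at 24 h and in R219S, against 13, 11, 18 and 24. Of all genes, 23.1%, 20.2%, 50.3% and 60.3% were called with the block, against 23.6%, 19.8%, 46.9% and 62.1% without it. Low counts of the genes themselves limit CCN2, CCN5, COL17A1 and SPARC, and COL4A1, COL1A2 and LAMA1 could not be tested.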
